A study of Mus musculus with 2 samples.

Results

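The interferon regulatory factors (IRFs) are transcription factors with a shared DNA-binding domain, and 8 of their genes were read here: Irf1, Irf2, Irf3, Irf4, Irf5, Irf7, Irf8 and Irf9. They were taken by name, each from probe sets annotated with a single gene symbol, and make up 8 of the 19937 genes so annotated. Langerhans cells, dendritic-like cells that present antigen in the epidermis, came from Il34LacZ/LacZ mice, with a LacZ allele in both copies of Il34, and from Il34+/LacZ mice, which carry the same allele in 1 copy and keep the other. Keratinocytes make IL-34, which binds the receptor it shares with CSF1. All mice were 8 to 12 weeks old and received ultraviolet light for 30 min, and cells positive for Langerin and Epcam were sorted 21 days later. No wild-type and no unexposed array was analysed here, and the labels do not say how many animals gave each RNA. Each genotype was measured on 1 array, so every value is a single measurement and no test between genotypes was possible.

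IRFs bind repeats of a GAAA core in promoters of interferon and interferon-stimulated genes. IRF3, IRF5 and IRF7 wait in the cytoplasm until kinases downstream of nucleic acid sensors or Toll-like receptors phosphorylate them, and IRF3 and IRF7 then switch on interferon genes. Secreted interferon signals through JAK kinases to STAT proteins, and IRF9 is the DNA-binding part of the complex ISGF3 that forms downstream. IRF1 activates and IRF2 mostly represses a shared set of genes, while IRF4 and IRF8 work with partners such as PU.1 or BATF in dendritic cells and macrophages. Since some of these proteins, such as IRF3, are controlled after translation, an RNA reading alone does not measure their activity.

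Markers of other cell types differed between the arrays, and their part in the IRF differences was not tested. A reading counts as above the floor where it exceeds 48.7, the median intensity of all probe sets on both arrays. The sorting markers were bright: Cd207 (Langerin) read 1852 in Il34LacZ/LacZ against 3153 in Il34+/LacZ and Epcam 708 against 633 in the same order. All 14 Langerhans cell markers lay above the floor, with a summed intensity of 41115 in Il34LacZ/LacZ and 50705 in Il34+/LacZ. The 12 keratinocyte markers measured summed to 826 in Il34LacZ/LacZ and 5046 in Il34+/LacZ. Of the 11 that passed the floor, 10 read lower by 1.5-fold or more, beside 29.9% of all genes that passed it. Krt1 and Dsc3 passed through the Il34+/LacZ array alone, so they had to read lower. Of the 9 above the floor on both arrays, 8 were lower by that fold. The 9 neutrophil markers summed to 1576 in Il34LacZ/LacZ and 348 in Il34+/LacZ. In the same order, S100a9 at 699 and 103 and S100a8 at 552 and 71.9 made up most of the Il34LacZ/LacZ sum. The defining Ly6g was below the floor at 11.5 and 8.51. Of the 6 that passed the floor, 4 did so through the Il34LacZ/LacZ array alone. The 12 monocyte and macrophage markers summed to 4774 in Il34LacZ/LacZ and 4093 in Il34+/LacZ, but went both ways. Of the 11 that passed the floor, 2 read lower by 1.5-fold or more in Il34LacZ/LacZ and 3 higher, beside 29.9% and 16% of all genes. With the trend with level removed (described below), none was lower and 6 were higher, beside 18.6% and 13.9% of all genes. The 3 higher as deposited were Ms4a7 (3.54-fold), C1qa (2.26-fold) and Fcgr1 (1.65-fold), named after their values were seen. Ccr2 read 75.4 in Il34LacZ/LacZ against 111 in Il34+/LacZ and Itgam 326 against 594, whereas Cd14 read 834 against 583. The 7 T cell markers were bright in both, with sums of 6787 in Il34LacZ/LacZ and 7569 in Il34+/LacZ. Cd3e, a chain of the T cell receptor complex, read 1250.3 in Il34LacZ/LacZ and 1245 in Il34+/LacZ. The 10 conventional dendritic cell markers summed to 1970 in Il34LacZ/LacZ and 4121 in Il34+/LacZ, with the defining Xcr1 and Clec9a below the floor on both arrays. Flt3, the third on the list, read 121 in Il34LacZ/LacZ against 331 in Il34+/LacZ. In the same order, Sirpa at 870 and 2040 and Itgae at 479 and 1082, named after their values were seen, made up most of both sums. Whether these sums follow the number of conventional dendritic cells was not tested. The 7 plasmacytoid dendritic cell markers, 2 of which (Ly6d and Bst2) are also on other lists, summed to 908 in Il34LacZ/LacZ and 1546 in Il34+/LacZ, with Siglech at 87.5 and 80.3. Without Ly6d, which is also a keratinocyte gene, the other 6 summed to 844 in Il34LacZ/LacZ and 781 in Il34+/LacZ, so the direction of that sum turns. The 7 B and plasma cell markers summed to 310.2 in Il34LacZ/LacZ and 279.6 in Il34+/LacZ, with the defining Ms4a1 and Cd79a below the floor on both arrays.

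In Il34LacZ/LacZ, 6 of the 8 read lower than in Il34+/LacZ, as did 56.3% of all genes at or above the floor, and Irf3 and Irf7 read higher, as did 43.3%. Irf3 no longer read higher when each array was centred on its median, and Irf8 turned higher with quantile normalization and with the trend with level, described next, removed. In bulk RNA, fewer cells of a type and less RNA per cell cannot be told apart. Differences of log2(intensity + 16) ran between -1.62 for Irf9 and 0.43 for Irf7. Their median was -0.63, beside -0.16 over the 12843 genes at or above the floor and -0.49 over the 5101 genes within the IRF genes' range of level. All 8 IRF genes lay above the floor on both arrays. Genes of middle level mostly read lower in Il34LacZ/LacZ, so each difference is also given after subtracting a loess curve fitted to differences against level, called the trend. The median of the IRF genes was then -0.05, with 5 below and 3 above 0 (48.0% and 52% of all genes).

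At least 2-fold lower was only Irf9, 1 of 8, where 13.2% of all genes at or above the floor and 21.2% of genes in the IRF range of level passed that fold. None of the 8 was at least 2-fold higher, a fold that 2.57% of all genes and 2.12% in that range passed. At least 1.5-fold lower were 5 of 8 (Irf1, Irf2, Irf4, Irf5 and Irf9), beside 29.9% of all genes and 44.5% of genes in that range. None was at least 1.5-fold higher, beside 16% of all genes and 7.43% in that range. With the trend removed, Irf9 was the single gene at least 1.5-fold lower (18.6% of all genes, 18.9% in that range), and Irf3 and Irf7 were at least 1.5-fold higher (13.9% and 17.7%). No IRF gene was then at least 2-fold higher (4.14% of all genes, 7.21% in that range), and Irf9 remained at least 2-fold lower (7.05% and 5.78%). The only error the files hold is the disagreement between probe sets of the same gene, an SD of 0.63 on the log2 scale, or 1.55-fold, over 614 genes. It was 0.67 over the 187 genes with probe sets in the IRF range of level. As deposited, Irf2, Irf4, Irf5 and Irf9 differed by more than 0.63, and with the trend removed Irf3, Irf7 and Irf9 did.

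**Figure D1:**
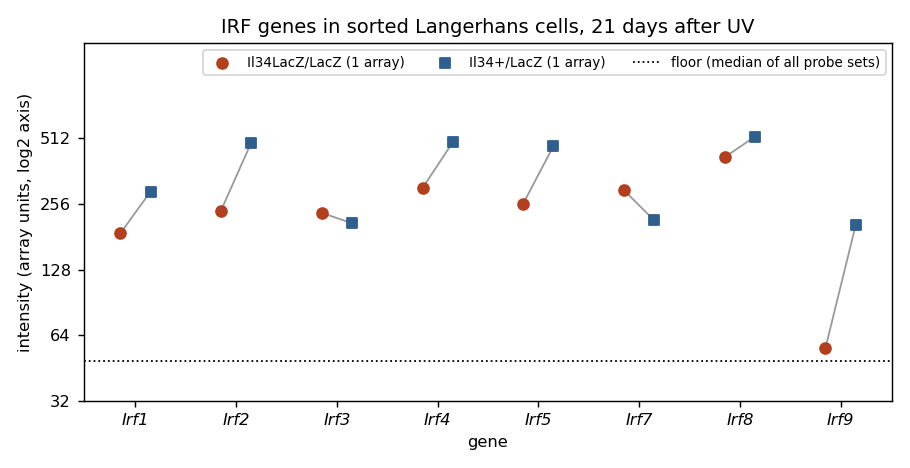
Intensity of each IRF gene on a log2 axis, with the Il34LacZ/LacZ array (circles) left of the Il34+/LacZ array (squares) and the floor dotted. Irf3 and Irf7 read higher in Il34LacZ/LacZ as deposited (Irf3 no longer when each array is centred on its median), the other 6 read lower, and Irf9 at 55.8 is nearest to the floor of 48.7.

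**Figure D2:**
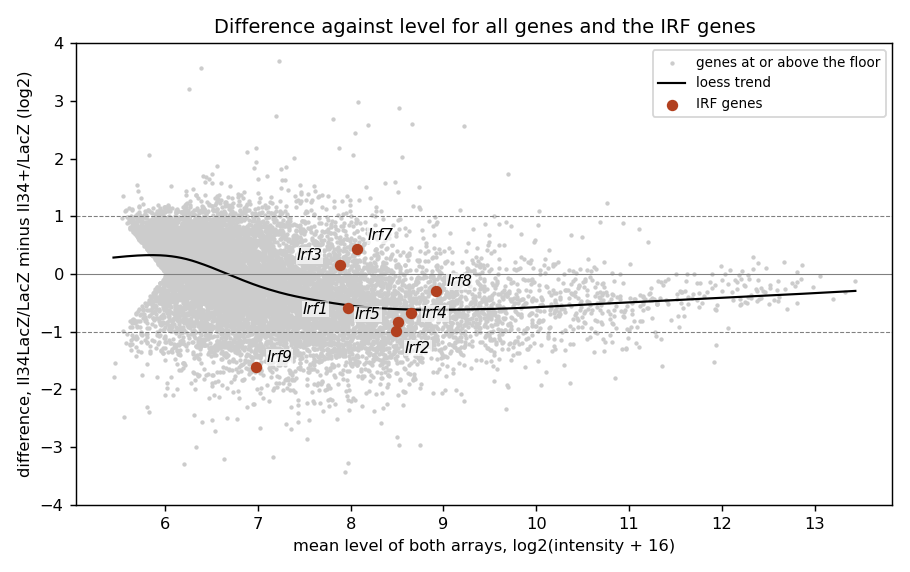
Difference between the arrays, Il34LacZ/LacZ minus Il34+/LacZ in log2 units, against mean level for the 12843 genes at or above the floor (grey), the loess trend (line) and the IRF genes (red). Irf1 and Irf4 lie on the trend, Irf9 lies 1.43 below it and Irf7 0.99 above it.

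Irf9, which supplies the DNA-binding subunit of ISGF3, stood furthest apart. It read 55.8 in Il34LacZ/LacZ, just above the floor, against 204.7 in Il34+/LacZ. That is 3.07-fold lower, a difference of -1.62, or -1.43 with the trend removed, and 2.56 times the probe set SD. Among the 500 genes nearest to it in level, 13 (2.60%) had a lower difference, and 14.6% were at least 2-fold lower. It is read by 1 probe set. Irf9 lies on the plus strand at chr14:55603985-55610030 (assembly GRCm38.p6).

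Irf7, the factor that amplifies type I interferon production and is itself an interferon-stimulated gene, was at the other end. It read 296 in Il34LacZ/LacZ against 215 in Il34+/LacZ, 1.35-fold higher. Its difference of 0.43 was smaller than the probe set SD, but was 0.99 with the trend removed. Of the 500 genes nearest in level, 452 (90.4%) had a lower difference. The gap between Irf7 and Irf9, 2.05 on the log2 scale, was the widest of the 28 pairs of IRF genes. As deposited it was the only 1 of the 28 beyond 2 SDs of a difference between 2 probe sets. With the trend removed 2 of 28 were, the other being Irf3 against Irf9. Irf7 lies on the minus strand at chr7:141263183-141266499.

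Irf3, the constitutive sensor-activated factor, read 233 in Il34LacZ/LacZ against 209 in Il34+/LacZ, a difference of 0.15. With the trend removed it was 0.67, and 410 of the 500 nearest genes had a lower difference. Irf5, which acts downstream of Toll-like receptors in macrophages and dendritic cells, read 257 in Il34LacZ/LacZ against 473 in Il34+/LacZ, 1.79-fold lower. Its difference of -0.84 was -0.23 with the trend removed, and 209 of the 500 nearest genes were lower still. The 3 sensor-activated factors thus read on both sides of 0: Irf5 lay 1.27 below Irf7 on the log2 scale. That gap is 1.42 SDs of a difference between 2 probe sets, so it lies within 2 of them. Irf3 lies at chr7:44997648-45002848 and Irf5 at chr6:29526130-29541869, both on the plus strand.

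Irf1 and Irf2, the activator and its antagonist, both read lower. Irf1 read 188 in Il34LacZ/LacZ against 292 in Il34+/LacZ, 1.51-fold lower, and -0.60 became -0.05 with the trend removed. A second probe set of Irf1 read 168 in Il34LacZ/LacZ against 189 in Il34+/LacZ, a difference of only -0.16 (0.29 with the trend removed), so the 2 disagreed in size. Irf2 read 239 in Il34LacZ/LacZ against 490.2 in Il34+/LacZ, 1.99-fold lower. Its difference of -0.99 sat just inside 2-fold and was -0.38 with the trend removed, and 162 of the 500 nearest genes (32.4%) were lower still. Irf1 lies at chr11:53770014-53778374 and Irf2 at chr8:46739745-46847458, both on the plus strand.

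Irf4 and Irf8, the factors of dendritic cell and macrophage identity, both read lower as deposited, Irf4 on the trend and Irf8 above it. Irf4 read 303 in Il34LacZ/LacZ against 491 in Il34+/LacZ, 1.59-fold lower (-0.67, and -0.05 with the trend removed). Irf8 read 420.1 in Il34LacZ/LacZ against 522 in Il34+/LacZ, 1.23-fold lower. Its difference of -0.30 lay above the trend: with the trend removed it was 0.32, and 375 of the 500 nearest genes had a lower difference. Irf4 lies at chr13:30749233-30766981 and Irf8 at chr8:120736358-120756694, both on the plus strand. Irf2 and Irf8 lie on the chromosome of the targeted gene Il34, 63.9 and 9.93 Mb from it. Whether the LacZ allele's flanking DNA plays a part was not tested.

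**Figure D3:**
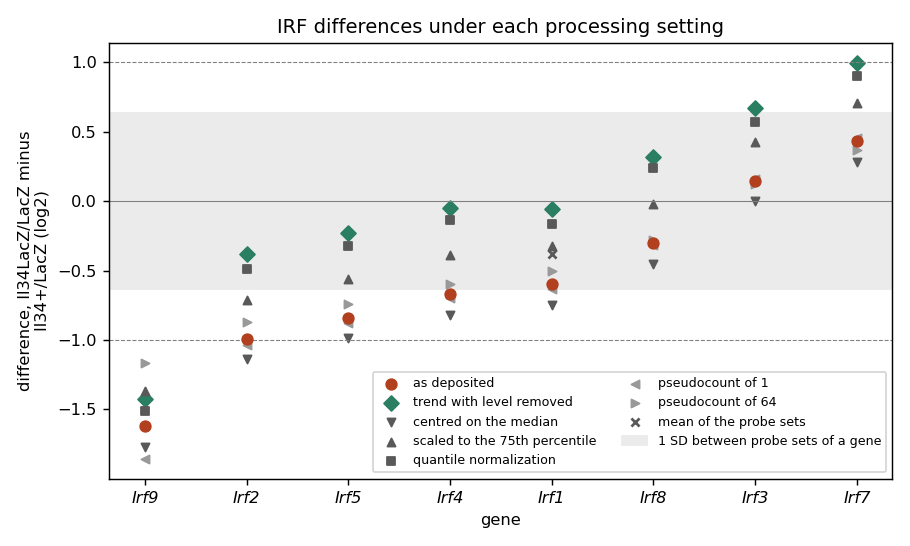
Difference of each IRF gene, Il34LacZ/LacZ minus Il34+/LacZ in log2 units, under 8 settings, with the band of 1 probe set SD (0.63) shaded and 2-fold dashed. Irf9 is at least 2-fold lower under every setting shown, Irf7 is above 0 under every one, Irf8 turns from lower to higher with the trend removed and with quantile normalization, and Irf3 reaches 0 when each array is centred on its median.

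Promoters of the IRF genes were searched for motifs of the interferon pathway, since several IRF genes are themselves induced by interferon. RefSeq windows of 300 bases (250 before and 50 after a transcription start, GRCm38.p6) were found for all 8 genes, 11 windows in all. They were searched on both strands for the gamma-activated site GAS (TTCNNNGAA), the interferon-stimulated response element ISRE (GAAA, any 2 bases, GAAA), the IRF core (AANNGAAA, which every ISRE match contains on the same strand) and the NF-kB consensus. GAS matches were found in 3 of the 8 genes, Irf1, Irf2 and Irf8, against 9.55% of all 27025 genes with a window (8.30% of 32851 windows). Irf2 alone held an ISRE (3.99% of genes, 3.44% of windows), with 2 overlapping IRF cores (26.7% and 23.9%), and Irf1 and Irf2 each held an NF-kB match (9.55% and 8.46%). The 5 others held none of the 4 motifs in these windows, which says nothing about sites elsewhere. A match is a string of letters and no evidence of binding.

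The windows of the GAS-bearing genes are shown first, 5′ to 3′ on the gene's strand, with all matches in capitals. The GAS match starts 90 bases before the start of Irf1, 224 before that of Irf2, and 171 and 153 before that of Irf8. The differences of these 3 genes ran between -0.99 and -0.30.
Irf1, chr11:53769764-53770063, plus strand: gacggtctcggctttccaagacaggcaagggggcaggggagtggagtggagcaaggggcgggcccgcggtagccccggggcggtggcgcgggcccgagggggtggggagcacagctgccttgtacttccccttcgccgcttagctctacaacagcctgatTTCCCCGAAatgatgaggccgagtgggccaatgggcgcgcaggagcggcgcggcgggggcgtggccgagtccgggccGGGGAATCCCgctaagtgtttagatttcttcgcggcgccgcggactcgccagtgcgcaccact
Irf2, chr8:46739495-46739794, plus strand: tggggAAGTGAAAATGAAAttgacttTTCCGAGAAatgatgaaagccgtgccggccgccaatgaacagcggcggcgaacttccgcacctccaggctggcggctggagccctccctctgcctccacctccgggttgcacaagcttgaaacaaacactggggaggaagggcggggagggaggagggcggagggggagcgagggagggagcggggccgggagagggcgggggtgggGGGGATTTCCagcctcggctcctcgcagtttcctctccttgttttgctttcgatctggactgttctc
Irf8, chr8:120736108-120736407, plus strand: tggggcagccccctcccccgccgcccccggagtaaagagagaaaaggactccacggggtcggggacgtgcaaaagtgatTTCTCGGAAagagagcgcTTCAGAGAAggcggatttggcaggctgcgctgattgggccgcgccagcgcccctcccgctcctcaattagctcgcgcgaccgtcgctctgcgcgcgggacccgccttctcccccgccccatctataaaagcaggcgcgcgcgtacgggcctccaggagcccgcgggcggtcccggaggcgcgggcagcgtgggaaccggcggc

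Irf9 and Irf7 are shown because they were furthest apart. Neither window holds a match, so both are all in lower case.
Irf9, chr14:55603735-55604034, plus strand: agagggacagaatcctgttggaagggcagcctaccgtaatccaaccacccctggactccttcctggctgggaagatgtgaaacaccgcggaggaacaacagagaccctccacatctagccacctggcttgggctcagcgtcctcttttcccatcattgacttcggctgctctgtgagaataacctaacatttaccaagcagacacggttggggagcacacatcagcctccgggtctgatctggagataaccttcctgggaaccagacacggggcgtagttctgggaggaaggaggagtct
Irf7, chr7:141266375-141266674, minus strand: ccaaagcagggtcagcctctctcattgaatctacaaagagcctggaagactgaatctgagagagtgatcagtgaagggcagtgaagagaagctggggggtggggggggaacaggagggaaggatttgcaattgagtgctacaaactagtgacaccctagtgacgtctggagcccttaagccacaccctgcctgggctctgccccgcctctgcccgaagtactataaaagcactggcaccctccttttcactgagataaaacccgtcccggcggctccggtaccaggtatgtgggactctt

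**Figure D4:**
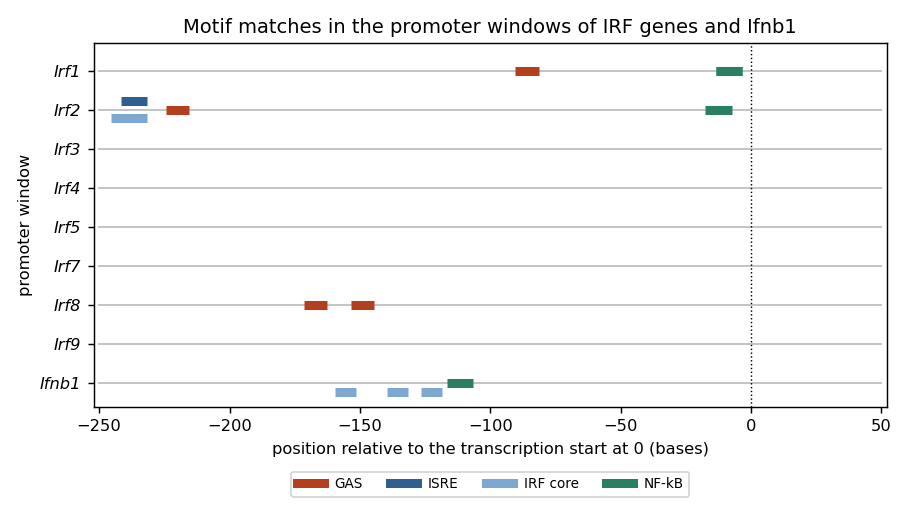
Motif matches along the most upstream RefSeq promoter window of each IRF gene and of Ifnb1, with position in bases relative to the transcription start at 0. GAS matches (red) are in Irf1, Irf2 and Irf8, and IRF cores (light blue) in Irf2 and Ifnb1.

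Over all pathway lists, 92 genes other than IRF genes passed the floor. As read, 36 (39.1%) were lower by 1.5-fold or more in Il34LacZ/LacZ and 10 (10.9%) higher, beside 29.9% and 16% of all genes, and 44.5% and 7.43% in the IRF range of level. With readings below the floor set to the floor, 35 (38.0%) were lower and 9 (9.78%) higher, beside 28.2% and 9.36% of all genes. The list counts below use these bounds, except where the trend was removed. Genes that carry interferon signals to the nucleus were mostly among the lower. Of 9 listed interferon receptor, JAK and STAT genes, 8 were measured and passed the floor. Of these, Il34LacZ/LacZ was lower by 1.5-fold or more for 6 and higher for none. Their median difference was -1.07. Removing the trend left 3 lower and 1 higher (18.6% and 13.9% of all genes), with a median of -0.48. Tyk2, the kinase of the type I interferon receptor, read 112 in Il34LacZ/LacZ against 375 in Il34+/LacZ, 3.06-fold lower (-1.61, and -1.11 with the trend removed). Jak2 and Jak1 were 2.46-fold and 2.42-fold lower, and Ifnar2, a chain of that receptor, 2.14-fold lower. The exception, Ifngr2, a chain of the interferon gamma receptor named after its values were seen, read 911 in Il34LacZ/LacZ against 636 in Il34+/LacZ.

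For genes whose products activate IRF3, IRF5 and IRF7, the share lower by 1.5-fold, before the trend was removed, lay near that in the IRF range of level. Several of them, such as Ticam1 and Ifih1, lay below that range, so its share is not one at their level. Of 23 listed, 20 were measured and 16 passed the floor, of which 8 (50%) were at least 1.5-fold lower, against 44.5% of genes in the IRF range of level, and none higher. Their median was -0.54. Removing the trend left 5 lower and 1 higher (18.6% and 13.9% of all genes), with a median of -0.37. Of these 5, 4 were at least 2-fold lower, beside 7.05% of all genes. Slc15a4, an endolysosomal transporter needed for Toll-like receptor signalling to IRF5 and IRF7, read 88.1 in Il34LacZ/LacZ against 459 in Il34+/LacZ, 4.56-fold lower (-2.19, and -1.69 with the trend removed). Tlr9, the receptor for unmethylated DNA, read 179.9 in Il34LacZ/LacZ against 683 in Il34+/LacZ, 3.57-fold lower. Sting1, the adaptor of cytosolic DNA sensing, read 138 in Il34LacZ/LacZ against 479.9 in Il34+/LacZ, 3.22-fold lower. Irak2, a kinase of the Toll-like receptor pathway, was 2.49-fold lower.

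Partners and inhibitors had medians between those of all genes (-0.16) and of genes in the IRF range of level (-0.49). Of 14 partners of IRF4 and IRF8, 13 passed the floor, 5 (38.5%) were at least 1.5-fold lower and none higher (median -0.39). Of all genes, 28.2% were lower and 9.36% higher, and of genes in the IRF range of level 44.5% and 7.43%. Removing the trend left 1 lower and 1 higher (18.6% and 13.9% of all genes), and the median turned to 0.11. Jun, an AP-1 subunit, read 1740.4 in Il34LacZ/LacZ against 3808 in Il34+/LacZ, 2.18-fold lower. Spi1, which encodes PU.1, read 886 in Il34LacZ/LacZ against 1759 in Il34+/LacZ, 1.97-fold lower. Nfatc2 was 2.06-fold lower and Etv6 1.79-fold lower. Of 12 inhibitors measured, 5 (41.7%) were at least 1.5-fold lower and none higher (median -0.40). Removing the trend left 2 lower (18.6% of all genes), with a median of -0.03. The phosphatase genes Ptpn11, Ptpn2 and Ptpn6 were lower by 0.85, 0.84 and 0.68 on the log2 scale, and Rbck1, part of a linear ubiquitin ligase, 1.57-fold lower.

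Target genes were divided. Of 18 listed IRF1 and IRF2 targets, 17 were measured and 14 passed the floor, with 7 (50%) at least 1.5-fold lower and none higher. Of all genes, 28.2% were lower and 9.36% higher. Of genes in the IRF range of level, 44.5% were lower and 7.43% higher, so the share lower was near that of this range. Il15 would be the eighth as read, but only its bound can be given. Their median was -0.61, or -0.59 with Il15 at its bound. Removing the trend left 6 lower (18.6% of all genes, 18.9% in that range), with a median of -0.31. They were led by Tap1, the peptide transporter subunit, 3.01-fold lower, Ciita, the regulator of MHC class II genes, 2.98-fold lower, and the immunoproteasome subunit Psmb9, 2.21-fold lower. The cytokine gene Il15, below the floor in Il34LacZ/LacZ, read 21.6 there against 59.6 in Il34+/LacZ, at least 1.17-fold lower.

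ISGF3, IRF3 and IRF7 targets past 1.5-fold were higher, apart from Irf9. Of 26 listed, 23 were measured and 20 passed the floor, among them Irf7 and Irf9. Without these 2, 7 of 18 were at least 1.5-fold higher in Il34LacZ/LacZ and none lower (median 0.19), beside 9.36% of all genes higher and 28.2% lower. With the trend removed, 8 were higher and none lower (median 0.21), beside 13.9% of all genes higher and 18.6% lower. In the IRF range of level 17.7% were higher and 18.9% lower. Several of the targets, such as Rsad2 and Ifit1, lay below that range, so its shares are not at their level. Beside Irf9, the targets with the widest differences as read were Rsad2, the antiviral protein viperin, Oasl1, of the oligoadenylate synthetase family, and Ifit1, an RNA-binding antiviral protein. Rsad2 read 139 in Il34LacZ/LacZ against 32.5 in Il34+/LacZ, at least 2.40-fold higher. Oasl1 read 282 in Il34LacZ/LacZ against 107 in Il34+/LacZ, 2.42-fold higher. Ifit1 read 111 in Il34LacZ/LacZ against 40.2 in Il34+/LacZ, at least 1.96-fold higher. Ifit1 and Rsad2 passed the floor only through the Il34LacZ/LacZ array, so they had to read higher there. Of the 16 on both arrays, 5 were at least 1.5-fold higher and none lower, with a median of 0.08. With the trend removed 6 of the 16 were higher. The share over all genes above the floor on both arrays was not computed. Cxcl10, a T cell attractant named after its values were seen, read 617 in Il34LacZ/LacZ against 275 in Il34+/LacZ. Without a second array per genotype, the difference between the target lists was not tested.

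Interferon genes were mostly near or under the floor. Of 10 listed, 7 were measured and 4 passed (median 0.31, or 0.27 with 2 at their bound). Ifnb1, which encodes interferon beta, read 165 in Il34LacZ/LacZ against 33.3 in Il34+/LacZ, at least 2.80-fold higher. It too passed through the Il34LacZ/LacZ array alone. Ifnl2 read 146 in Il34LacZ/LacZ against 124 in Il34+/LacZ, and Ifna5 136 against 138 in the same order of genotypes. Ifna2 read 64.6 in Il34LacZ/LacZ against 45.0 in Il34+/LacZ, which is below the floor, so it is at least 1.25-fold higher and passed through the Il34LacZ/LacZ array alone. Interferon alpha genes are near-identical to each other, so their readings are uncertain. The Ifnb1 window is shown because its IRF cores, in capitals with an adjoining NF-kB match that starts 116 bases before the start, are the textbook target of IRF3 and IRF7. The cores start 159, 139 and 126 bases before the start.
Ifnb1, chr4:88522745-88523044, minus strand: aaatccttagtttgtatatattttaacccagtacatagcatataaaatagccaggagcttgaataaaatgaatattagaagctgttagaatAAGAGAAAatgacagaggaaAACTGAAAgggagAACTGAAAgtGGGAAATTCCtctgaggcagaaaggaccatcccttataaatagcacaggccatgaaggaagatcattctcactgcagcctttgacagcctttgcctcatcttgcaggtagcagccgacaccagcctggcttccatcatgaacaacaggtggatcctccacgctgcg

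IRF4 and IRF8 targets of antigen-presenting cells lay on both sides. Of 15 listed, 14 were measured and 13 passed, with 5 (38.5%) at least 1.5-fold lower and 1, Ccl17, higher (7.69%). The median was -0.25. Of all genes, 28.2% were lower and 9.36% higher, and 44.5% in the IRF range of level were lower. Il12b, an interleukin gene named after its values were seen, read 56.5 in Il34LacZ/LacZ against 29.75 in Il34+/LacZ, which is below the floor, so it is at least 1.12-fold higher and passed through the Il34LacZ/LacZ array alone. Removing the trend left 3 lower and 1 higher (18.6% and 13.9% of all genes), and the median turned to 0.12. Bcl6, a transcriptional repressor, read 169 in Il34LacZ/LacZ against 556 in Il34+/LacZ, 3.10-fold lower. Ccl17, a chemokine that attracts T cells, read 2639.9 in Il34LacZ/LacZ against 1121 in Il34+/LacZ, 2.34-fold higher. Ciita, also on this list, is given above, and Prdm1, which encodes the repressor Blimp-1, was at least 1.78-fold lower.

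**Figure D5:**
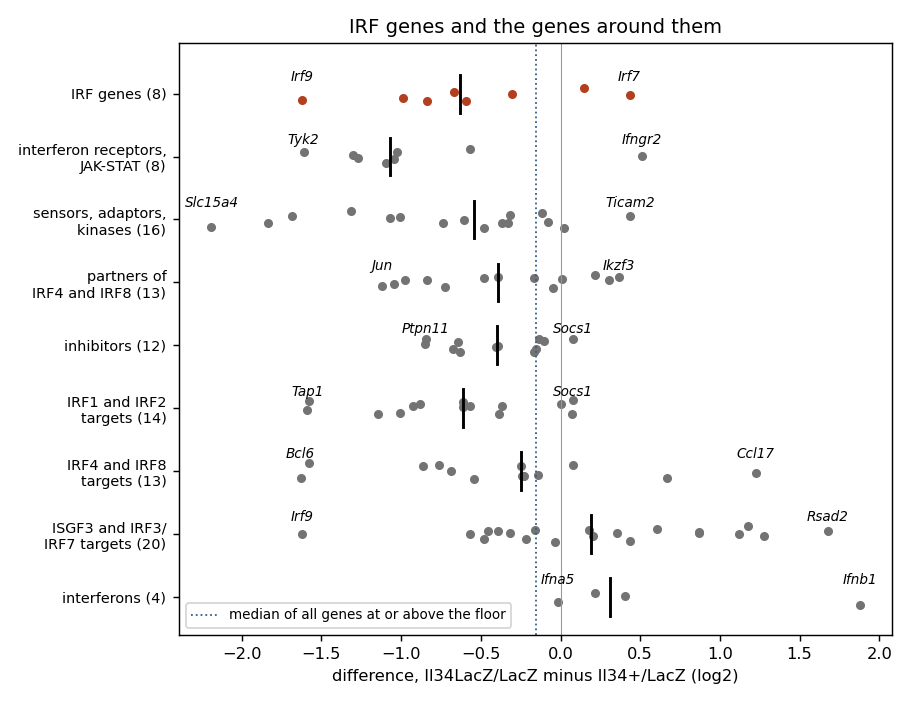
Differences, Il34LacZ/LacZ minus Il34+/LacZ in log2 units, of the IRF genes (red) and of the listed genes at or above the floor (grey), with the number of genes in brackets, each list's median as a bar and the median of all genes (-0.16) dotted. The medians as deposited are lowest for the interferon receptor and JAK-STAT list (-1.07) and above 0 for ISGF3 targets (0.19) and interferons (0.31). Ifit1, Rsad2, Ifnb1 and Ifna2 passed the floor only through the Il34LacZ/LacZ array, so they had to read higher there. Over genes above the floor on both arrays the medians are 0.08 for ISGF3 targets and 0.10 for the 2 interferons left.

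On the chromosome, the nearest measured gene on each side within 100 kb gave 13 neighbours, of which 5 differed from their IRF gene by more than the probe set SD and 8 by less. That SD is of 1 reading, whereas pairs of IRF genes were set against the wider SD of a difference between 2. The same share over other neighbouring genes was not computed, so the counts only describe these 13. Given here are the 5 that overlap an IRF gene or lie within 432 bases of it. Bcl2l12, 10 bases from Irf3, differed by -0.03, against 0.15 for Irf3. Scaf1, 98 bases from Irf3 on the other side, differed by -0.62. Phrf1, 432 bases from Irf7, read 77.5 in Il34LacZ/LacZ against 249 in Il34+/LacZ, whereas Irf7 was higher by 0.43. Rnf31, which encodes a subunit of the linear ubiquitin ligase and lies 311 bases from Irf9, differed by -0.25, against -1.62 for Irf9. Tnpo3, whose annotated span meets that of Irf5, differed by -1.03, against -0.84 for Irf5. The 2 others beyond the SD were Kcp near Irf5 (1.12 apart) and Ipo4 near Irf9 (0.67 apart).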

How the data were processed

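Gene expression was measured on 1-colour whole-transcript mouse arrays, 1 per genotype. The authors deposited 1 linear intensity per probe set and array. How probes were combined, background removed and arrays scaled is not stated in the labels or files. The values reach 13768 in Il34LacZ/LacZ and 13748 in Il34+/LacZ, medians are 51.9 and 45.2, and 448 of 34760 probe sets, none of an IRF gene, hold the same value on both arrays. Precision is limited by the number of arrays.

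The platform annotation gave 21640 probe sets a single symbol, covering 19937 genes. All 8 IRF genes matched the RefSeq gene table. A gene was represented by its probe set with the highest mean. Values were taken as log2(intensity + 16), so folds are on that scale and understate changes of dim genes. The loess trend (fraction 0.3) was fitted to single-symbol probe sets. A gene was used if either array reached the floor, and where the dimmer array was below it the fold is against the floor, written as at least. Each IRF gene was placed among the 500 genes nearest in mean level. Genes named were the 8 IRF genes, the 4 members of each pathway list furthest apart, chromosome neighbours, and markers from the first 3 of each cell type list. Not all of these first markers are given, and some genes outside the rule, such as Sirpa and Cxcl10, were named after their values were seen. The IRF genes and the lists were chosen with earlier results of these data known. Alternatives changed the pseudocount, scaling, floor, probe set rule and number of nearest genes. The scripts were tested on simulated data. Promoter sequences are RefSeq's. Python 3.11.15, numpy 2.4.6, pandas 2.3.3, statsmodels 0.14.6 and matplotlib 3.10.9 were used.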

Additional observations from a re-analysis of the deposited data

How the results depend on the processing

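The median difference of the 8 IRF genes was below 0 in all 7 alternatives computed for it and was -0.63 as deposited. It was -0.053 with the trend removed, -0.15 with quantile normalization and -0.35 with each array scaled to its 75th percentile. The median of all genes, -0.16 as deposited, was 0.03, 0.05 and 0.10 in these 3 settings and -0.31 with arrays centred on their medians. Relative to it the IRF median was -0.48 as deposited and -0.08, -0.20, -0.46 and -0.48 in those 4. The number of IRF genes past 2-fold, 1 as deposited (lower), was 2 with a pseudocount of 1 and with median centring, where Irf2 joined Irf9, and 1 in the other 7 alternatives. Irf9 was between -1.86 and -1.16 in all 7 alternatives, Irf7 between 0.28 and 0.99, and Irf8 between -0.45 and 0.32. Of the 92 pathway genes that passed the floor, 36 were lower by 1.5-fold or more as read, 19 with the trend removed and 21 with quantile normalization. Over all genes, 330 were higher by 2-fold or more and 1698 lower as deposited, so 16.3% of those apart were higher. The counts were 532 and 905 (37.0%) with the trend removed, 580 and 879 (39.8%) with quantile normalization, 1022 and 835 (55.0%) with 75th percentile scaling and 163 and 2345 (6.50%) with median centring. They were 859 and 2119 (28.8%) with a pseudocount of 1, 73 and 860 (7.82%) with one of 64, and 190 and 1511 higher and lower with the floor at the 75th percentile. No paired analysis was possible because each genotype has 1 array, and for the same reason none could be left out.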
